A study of Mus musculus with 6 samples.

Results

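The genes described here encode the machinery of base excision repair, nucleotide excision repair and mismatch repair in the mouse, with 1 enzyme of direct damage reversal. A list of 39 gene symbols was matched to the table of expression values, and all 39 were found among its 37755 entries. The list holds 17 genes of base excision repair, 17 of nucleotide excision repair, 4 of mismatch repair and *Mgmt*. RNA was compared between primary mammary epithelial cells (MEC) in 3 preparations and 3 cell lines grown from JNK-deficient mammary tumors (MEKO), with 1 library for each preparation or line. MEC carried Wap-Cre (genotype WAPCre+, strain C57/Bl6J), and each preparation came from 3 to 5 pooled females, virgin and 10 to 12 weeks old, and was harvested as a nearly confluent primary culture on collagen I, in medium with serum, EGF and insulin. MEKO lines also carried Cre (genotype Mapk8KO Mapk9KO Cre+, strain C57/Bl6J) and had *Mapk8* and *Mapk9* deleted, which encode the kinases JNK1 and JNK2. Their tumors were dispersed with collagenase, and the cells spent 2 passages on collagen I before transfer to ordinary dishes. Wap-Cre acts in luminal epithelial cells and is induced by lactation. The tumors came from parous mice and the MEC from virgin mice, so only the tumor mice had gone through that induction. The methods of the study keep the tumor lines in medium with serum and name no EGF or insulin for it. Genotype, tumor origin, parity with Cre induction, growth surface, medium and time in culture changed together between the groups and cannot be told apart. The labels give no age for the mice of the MEKO lines. The study bred females at 10 to 12 weeks and followed them for tumors after weaning, so these mice were older than the MEC donors. Age cannot be told apart from the other differences either. The lines are called 199, 233 and 336 after their labels, and the labels give no batch or sequencing date.

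These pathways remove different lesions from a single strand of DNA and refill the gap from the intact strand. In base excision repair a glycosylase cuts out a single damaged base, an endonuclease opens the backbone, and a polymerase and a ligase close the gap, with poly(ADP-ribose) polymerases marking the break. Nucleotide excision repair recognises bulky lesions such as those of ultraviolet light, opens the helix with the transcription factor TFIIH and removes a short oligonucleotide with a nuclease on either side. Mismatch repair recognises copying errors of DNA polymerases through MutS homologues and recruits MutL homologues to start excision of the new strand. Dividing epithelium depends on all of them, and inherited loss of mismatch repair or of nucleotide excision repair predisposes to cancer.

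Expression was given as FPKM, in which the fragments of a gene are divided by its exon length and by the size of the library, so levels can be compared between genes per unit of length. The summed FPKM of a library lay between 557991 and 638365, and between 17343 and 18741 entries were above 0. The number of reads behind an FPKM is unknown, and no counting interval was made. *Mapk8* was called lower in MEKO, with 5.93, 3.12 and 1.37 FPKM in lines 199, 233 and 336 against 19.2 to 25.1 in MEC. *Mapk9* was called lower as well, with 7.62, 3.15 and 3.07 FPKM against 21.5 to 24.4 FPKM in MEC. The luminal keratin and adhesion genes *Krt8*, *Krt18*, *Krt19*, *Epcam* and *Cdh1* were detected in every library, at a summed 5310 to 8870 FPKM in MEC and 789 to 1960 FPKM in MEKO. The 5 basal markers summed to 1460 to 2730 FPKM in MEC, to 2260 FPKM in line 199 and to 10.6 and 58.6 FPKM in lines 233 and 336. The 6 fibroblast markers summed to 95.7 to 179 FPKM in MEC, 1080 FPKM in line 199 and at most 2.38 FPKM in the other lines. In line 199 that sum was nearly all collagen, with *Col1a1* at 600 FPKM, whereas *Dcn* and *Lum*, also of that list, were at 0.311 and 0.0264 FPKM against 3.29 to 6.62 and 0.507 to 1.28 FPKM in MEC. MEC 3 stood apart in its proliferation genes, which summed to 364 FPKM against 826 and 916 in the other MEC preparations. The same 18 proliferation genes summed to 1430, 1010 and 966 FPKM in lines 199, 233 and 336. The 5 leukocyte markers summed to 0.801 to 8.16 FPKM, except for 23.5 FPKM in line 336, which was *Cd68* (3.46 to 6.59 FPKM in MEC), while *Ptprc* and *Cd3e* were at most 0.399 FPKM in any library. Endothelial markers summed to 1.79 to 15.7 FPKM in MEC and at most 0.484 FPKM in MEKO. Adipocyte markers summed to 1.28 to 11.7 FPKM in MEC, all of it *Fabp4*, and at most 1.17 FPKM in MEKO, with *Plin1* listed at 0 in every library. In RNA from bulk cultures, fewer cells of a type and less RNA per cell cannot be told apart.

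Between MEKO and MEC the test called 1 excision or mismatch repair gene higher, near the share of all tested genes, and 1 lower. A gene was called with an adjusted p under 0.05 (limma on log2(FPKM + 1), Benjamini-Hochberg over all 12461 genes with a mean of at least 1 FPKM) and a log2 fold change beyond 0.75. Of the 39 genes 38 were tested, and *Neil2* was too low. The test called 1 of the 38 (2.63%) higher in MEKO, *Msh6*, and 1 (2.63%) lower, *Polb*. Among all tested genes it called 2.64% higher and 7.26% lower. The log2 fold changes of the 38 genes ran from −0.77 to 0.88 with a median of 0.12, and 24 were above 0, against a median of 0.01 over all tested genes. In 10 of the 38 (26.3%) every MEKO line lay above every MEC library, and in 4 (10.5%) every line lay below, against 18.5% and 18.7% of all tested genes. With 1 library left out, no repair gene was called, except *Ercc5* alone without line 199. Of all 12461 tested genes the fit of all libraries called 1234. Without MEC 1, 2 or 3 the count was 300, 336 or 560, and without line 199, 233 or 336 it was 1886, 984 or 902.

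**Figure D1:**
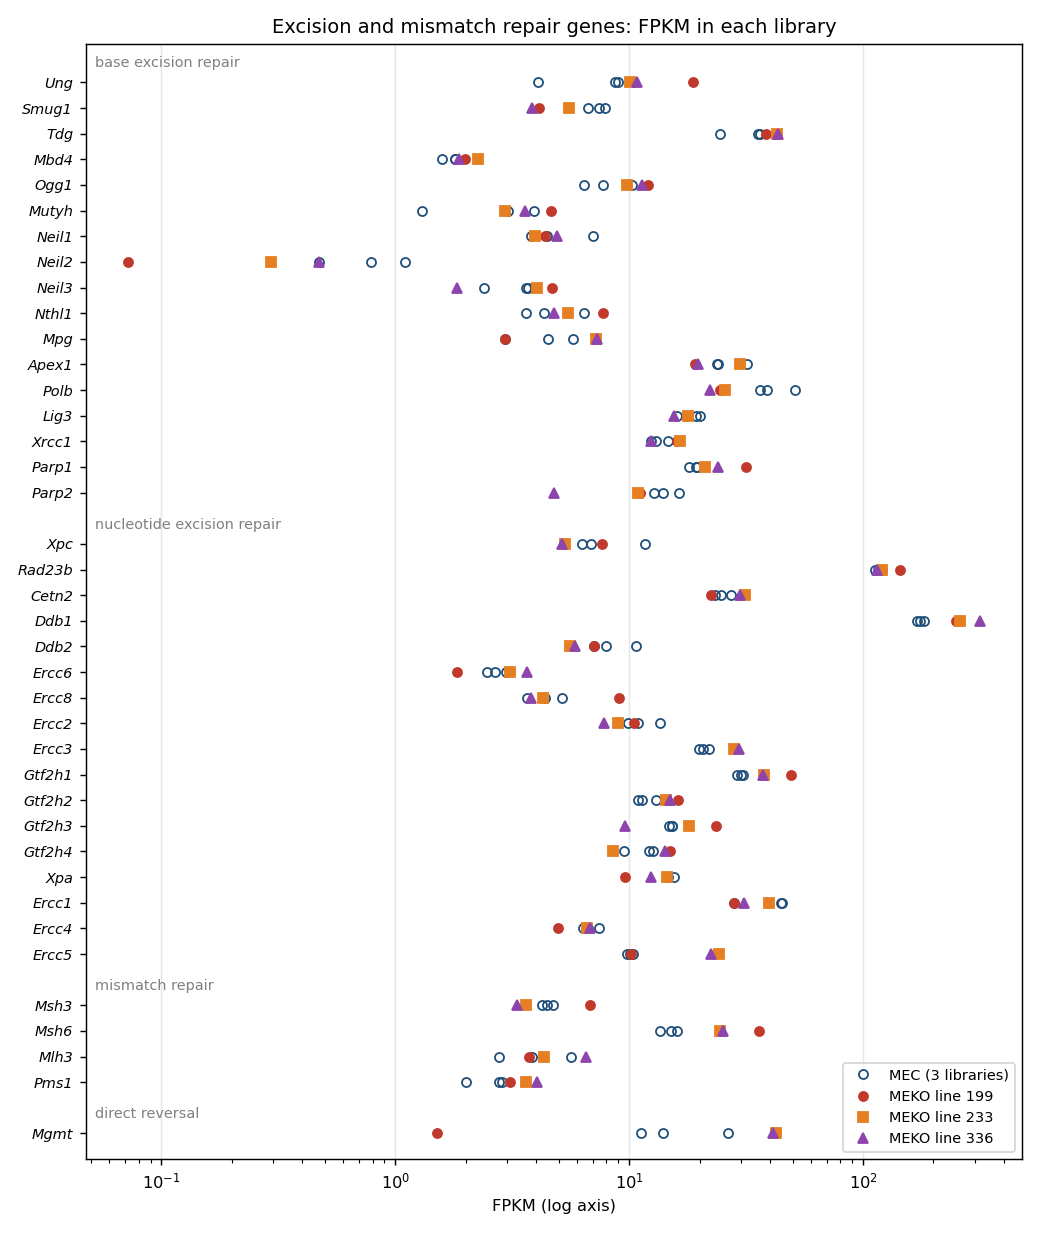
FPKM of each of the 39 repair genes (log axis) in the 3 MEC libraries (open circles) and in MEKO lines 199, 233 and 336 (filled symbols), grouped by pathway. *Ddb1* sits highest (170 to 316 FPKM), *Neil2* lowest (at most 1.1 FPKM), and *Mgmt* spans 1.51 to 42.3 FPKM between lines.

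Among the mismatch repair genes, *Msh6* rose in MEKO while *Msh3* did not pass the test. *Msh6* and *Msh3* encode MutS homologues that bind the same partner protein. The MSH6 dimer recognises base mismatches and short loops, and the MSH3 dimer recognises larger insertion and deletion loops. *Msh6* stood at 15.1, 16 and 13.6 FPKM in MEC 1, 2 and 3 and at 36, 24.5 and 25.3 FPKM in lines 199, 233 and 336. Every line lay above every MEC library, and the lowest line was 1.54 times the highest MEC library. The mean rose from 14.9 ± 1.2 to 28.6 ± 6.39 FPKM (SD, n = 3 each), a ratio of 1.92. The log2 fold change with its standard error was 0.88 ± 0.19 (limma, adjusted p = 0.0376), and the exact permutation test gave p = 0.1 (two-sided), the smallest that 3 against 3 libraries allow. The adjusted p (limma) was 0.145, 0.116 or 0.124 without MEC 1, 2 or 3 and 0.0551 or 0.062 without line 233 or 336, and without line 199 it was 0.0267 with a log2 fold change of 0.71, under the fold threshold.

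*Msh3* stood at 4.46, 4.74 and 4.25 FPKM in MEC and at 6.78, 3.64 and 3.33 FPKM in lines 199, 233 and 336, values given after they were seen. Line 199 lay above MEC and the other lines below it, and the mean difference was near 0 (log2 fold change −0.02, limma, adjusted p = 0.965). The ratio of *Msh6* to *Msh3* was therefore 3.2 to 3.38 in MEC and 5.3, 6.73 and 7.6 in lines 199, 233 and 336. The MutL homologues *Pms1* and *Mlh3*, which pair with a common MutL partner, were expressed at low levels. *Pms1* read 2.85, 2.77 and 2 FPKM in MEC and 3.09, 3.64 and 4.02 FPKM in the lines, above MEC in every line but with a log2 fold change of 0.38 that did not pass (limma, adjusted p = 0.277). *Mlh3* overlapped between the groups, at 2.79 to 5.66 FPKM in MEC and 3.72 to 6.53 FPKM in MEKO. Summed over the 4 genes, mismatch repair transcripts came to 25.5 to 26.3 FPKM in MEC and 49.6, 36.1 and 39.2 FPKM in the lines, most of it *Msh6*. The proliferation genes were also highest in line 199, and their part in the *Msh6* result was not tested.

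*Msh6* lies at chr17:87975062-87990892 on the plus strand (GRCm38), and *Fbxo11* on the opposite strand shares 0.782% of its exon length. The 29 tested genes within 5 Mb of it had a median log2 difference from MEC of 0.13 in line 199, −0.05 in line 233 and −0.03 in line 336, and *Msh6* itself 1.22, 0.69 and 0.73. The lines were reported to carry gains and losses of chromosome segments, copy number was not analysed here, and its part in the values of any gene was not tested. The 250 bases before the *Msh6* start (RefSeq, GRCm38.p6, chr17:87974800-87975049) are shown because it is the repair gene that the test above called higher. Those of *Ercc5* (chr1:44147494-44147743) and *Mgmt* (chr7:136894336-136894585) follow, since the values of these genes separate line 199 from the others. All are written 5′ to 3′ on the plus strand, with each CCAAT (NF-Y) and GGGCGG (SP factors) on either strand in capitals.
Msh6: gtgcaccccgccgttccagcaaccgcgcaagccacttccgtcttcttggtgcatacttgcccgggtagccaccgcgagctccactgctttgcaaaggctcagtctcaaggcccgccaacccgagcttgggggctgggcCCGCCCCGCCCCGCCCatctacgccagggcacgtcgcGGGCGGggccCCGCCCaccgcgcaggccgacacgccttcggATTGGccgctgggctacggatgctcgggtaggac
Ercc5: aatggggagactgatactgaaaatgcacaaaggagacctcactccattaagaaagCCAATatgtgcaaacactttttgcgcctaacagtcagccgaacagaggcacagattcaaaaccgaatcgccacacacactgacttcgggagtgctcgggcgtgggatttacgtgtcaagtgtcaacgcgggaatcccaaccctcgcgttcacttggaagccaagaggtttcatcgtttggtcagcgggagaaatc
Mgmt: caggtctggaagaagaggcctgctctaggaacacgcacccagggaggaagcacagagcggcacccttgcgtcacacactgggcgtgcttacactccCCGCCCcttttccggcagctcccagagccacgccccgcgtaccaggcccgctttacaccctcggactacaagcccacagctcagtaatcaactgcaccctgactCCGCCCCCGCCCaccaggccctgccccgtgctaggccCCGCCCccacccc
The *Msh6* stretch holds 1 CCAAT, 5 GGGCGG and 27 CpG dinucleotides. The *Ercc5* stretch holds 1 CCAAT, no GGGCGG and 14 CpG, and that of *Mgmt* holds no CCAAT, 4 GGGCGG and 15 CpG. Of the 39 repair genes, 34 had 1 or more RefSeq windows of 300 bases around the start, 37 windows in all. A GGGCGG lay in 26 of these 37 windows and in 35.6% of all 32817 windows. A CCAAT lay in 22 of the 37 and in 37.4% of all windows. The E2F motifs TTTGGCGC and TTTCGCGC were found for *Msh3*, with a pair of overlapping matches, and for *Nthl1*, and in 0.814% of all windows. The AP1 motif TGACTCA was found for *Gtf2h4* and in 5.2% of all windows. CCAAT and GGGCGG are common, a match does not show binding, and promoter windows of expressed genes were not compared separately.

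In base excision repair the polymerase *Polb* fell, while the uracil glycosylases *Ung* and *Smug1* stood on opposite sides of MEC without passing the test. *Polb* encodes DNA polymerase beta, which fills the single-base gap and trims the sugar-phosphate left behind. It stood at 36.3, 38.9 and 51.1 FPKM in MEC 1, 2 and 3 and at 24.5, 25.6 and 22.1 FPKM in lines 199, 233 and 336. The lines were close to each other and all lay below the lowest MEC library. The mean fell from 42.1 ± 7.89 to 24.1 ± 1.82 FPKM (SD, n = 3 each), a ratio of 0.572, with a log2 fold change of −0.77 ± 0.17 (limma, adjusted p = 0.0426) and an exact permutation p = 0.1. The adjusted p (limma) was 0.111, 0.125 or 0.0972 without MEC 1, 2 or 3, and 0.0515, 0.0753 or 0.0916 without line 199, 233 or 336. *Polb* lies at chr8:22628126-22653435 on the minus strand, and its 41 tested neighbours within 5 Mb had medians of −0.04, 0.17 and 0.13 in the 3 lines against −0.74, −0.68 and −0.89 for *Polb*.

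The partners of the polymerase in sealing the gap did not pass the test. *Xrcc1*, the scaffold, read 12.4 to 14.7 FPKM in MEC and 12.4 to 16.5 FPKM in MEKO (limma, adjusted p = 0.597). *Lig3*, the ligase that XRCC1 carries, read 16 to 20 FPKM in MEC and 15.6 to 17.9 FPKM in MEKO (limma, adjusted p = 0.698), and 25.1% of its exon length is shared with *Rffl* on the opposite strand. The ratio of *Polb* to *Lig3* was 1.88 to 2.55 in MEC and 1.38 to 1.44 in MEKO, and the groups did not overlap. *Apex1*, the endonuclease that opens the strand after the glycosylase, overlapped at 23.7 to 32 FPKM in MEC and 19.2 to 29.7 FPKM in MEKO (limma, adjusted p = 0.551). Its value is uncertain where reads were not assigned by strand, since *Pip4p1* covers 61.7% of its exon length on the opposite strand.

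**Figure D2:**
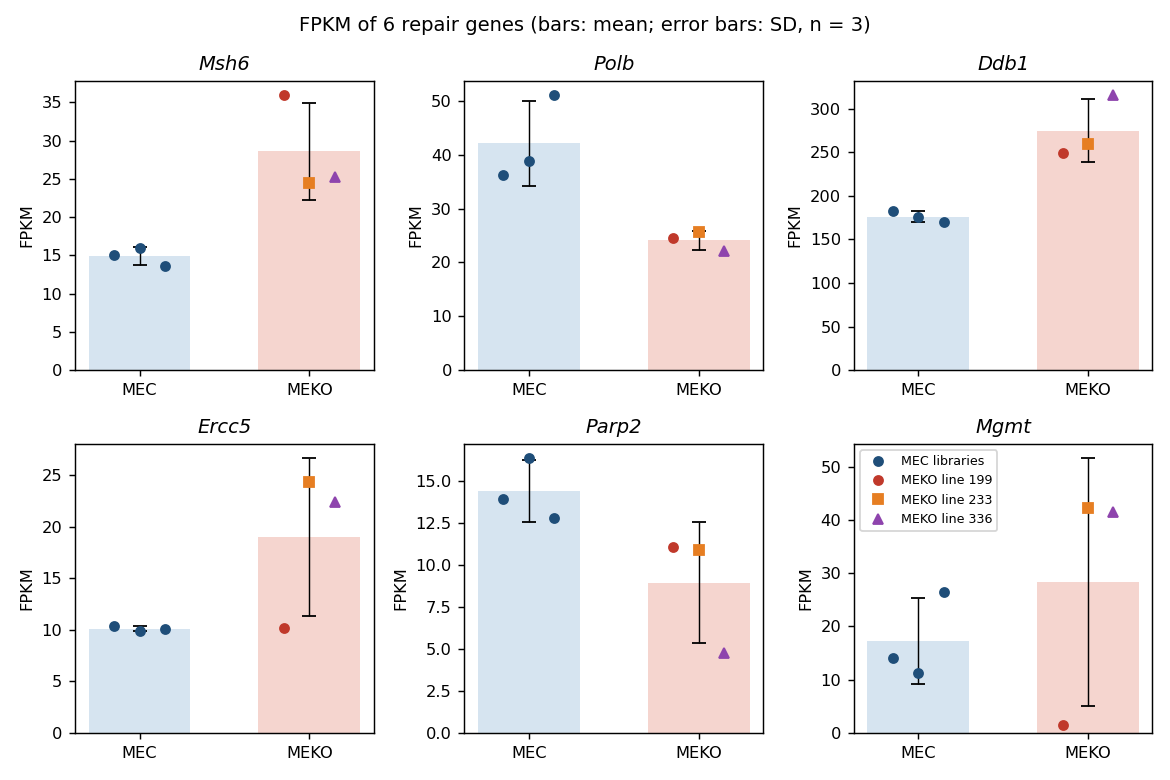
FPKM of *Msh6*, *Polb*, *Ddb1*, *Ercc5*, *Parp2* and *Mgmt* in each library (points), with group means (bars) and SD (error bars, n = 3 each). *Msh6* and *Ddb1* lie above MEC and *Polb* and *Parp2* below MEC in every line, while *Ercc5* and *Mgmt* split line 199 from lines 233 and 336.

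*Ung* encodes the main uracil glycosylase of replicating cells and *Smug1* a second enzyme for uracil and its oxidized forms. *Ung* stood at 9, 8.67 and 4.08 FPKM in MEC and at 18.8, 10.1 and 10.8 FPKM in lines 199, 233 and 336. The groups did not overlap, but the lowest line was 1.12 times the highest MEC library, and the log2 fold change of 0.80 ± 0.36 did not pass (limma, adjusted p = 0.203). *Smug1* stood at 7.88, 6.66 and 7.4 FPKM in MEC and at 4.1, 5.53 and 3.83 FPKM in the lines. All lines lay below MEC, with a ratio of means of 0.614 and a log2 fold change of −0.61 ± 0.19 (limma, adjusted p = 0.0961). The ratio of *Ung* to *Smug1* was 1.14, 1.3 and 0.551 in MEC and 4.59, 1.82 and 2.81 in the lines. Its groups could not overlap, because every line lay above MEC for *Ung* and below MEC for *Smug1*. Both *Ung* and the proliferation genes were lowest in MEC 3 and highest in line 199, and the part of proliferation in the *Ung* values was not tested.

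*Tdg* and *Mbd4* encode glycosylases that remove thymine or uracil opposite guanine, the products of deaminated methylcytosine and cytosine. *Tdg*, the most abundant gene of this pathway after *Polb* in MEC, read 35.6, 36.3 and 24.5 FPKM in MEC and 38.3, 43 and 43.4 FPKM in MEKO. Every line lay above MEC by a small margin, with a log2 fold change of 0.38 (limma, adjusted p = 0.246). *Mbd4* was low, at 1.59 to 1.81 FPKM in MEC and 1.87 to 2.25 FPKM in MEKO, also without overlap (limma, adjusted p = 0.652).

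No glycosylase for oxidized bases passed the test. The groups overlapped in all 5 that were tested, where 18.5% of all tested genes lay wholly above and 18.7% wholly below MEC, and the median log2 fold change of the 5 was 0.27. *Ogg1*, which removes 8-oxoguanine, read 6.42 to 10.3 FPKM in MEC and 9.82 to 12 FPKM in MEKO, and *Mutyh*, which removes adenine paired with 8-oxoguanine, read 1.3 to 3.91 and 2.95 to 4.62 FPKM. *Nthl1*, for oxidized pyrimidines, read 3.64 to 6.44 and 4.76 to 7.71 FPKM. *Neil1* and *Neil3*, of the NEIL family for oxidized bases, read 3.82 to 7.01 and 2.39 to 3.7 FPKM in MEC and 3.95 to 4.92 and 1.83 to 4.7 FPKM in MEKO. None of these 5 passed the test. *Neil2*, of the same family, was under the filter, at 0.79, 0.473 and 1.1 FPKM in MEC and 0.0723, 0.295 and 0.472 FPKM in lines 199, 233 and 336. Its groups did not overlap, but line 336 and MEC 2 were almost equal, and line 199 was far below MEC. The 45 tested neighbours of *Neil2* on chromosome 14 had medians of −0.69, −0.27 and −0.79 in lines 199, 233 and 336. *Mpg*, the glycosylase for alkylated bases, read 2.96 to 5.78 FPKM in MEC and 2.94, 7.24 and 7.27 FPKM in lines 199, 233 and 336, with line 199 low and the others above MEC (limma, adjusted p = 0.643). *Nprl3* on the opposite strand shares 35.7% of the *Mpg* exon length.

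The break sensors stood on opposite sides of MEC. PARP1 and PARP2 bind DNA breaks and build poly(ADP-ribose) chains that bring XRCC1 to the site. *Parp1* stood at 18, 19.3 and 19.5 FPKM in MEC and at 31.6, 21.1 and 24.1 FPKM in lines 199, 233 and 336. *Parp2* stood at 13.9, 16.4 and 12.8 FPKM in MEC and at 11.1, 10.9 and 4.78 FPKM in the lines. Neither gene had overlapping groups, with log2 fold changes of 0.40 ± 0.18 and −0.70 ± 0.32, and neither passed the test (limma, adjusted p = 0.216 and 0.21). The low *Parp2* value of line 336 set much of its change, since lines 199 and 233 were only 0.34 and 0.36 below the MEC mean on the log2 scale and line 336 was 1.40 below. *Parp2* lies at chr14:50807841-50821301 near *Apex1*, and its 76 tested neighbours had medians of −0.59, 0.00 and −0.48 in lines 199, 233 and 336. The ratio of *Parp1* to *Parp2* was 1.18 to 1.53 in MEC and 2.85, 1.94 and 5.04 in the lines. That separation was already fixed by the values of each gene alone. Summed over the 17 genes, base excision repair transcripts came to 207 to 217 FPKM in MEC and 193 to 220 FPKM in MEKO, without separation of the groups.

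In nucleotide excision repair no gene was called, and *Ddb1* came closest. *Ddb1* encodes the large subunit of the ultraviolet-damaged DNA-binding complex and the adaptor of CUL4 ubiquitin ligases, and *Ddb2* the subunit that binds the lesion. *Ddb1* was the most abundant of all 39 genes, at 183, 176 and 170 FPKM in MEC and 249, 259 and 316 FPKM in lines 199, 233 and 336. All lines lay above MEC, the lowest at 1.36 times the highest MEC library. The mean was 176 ± 6.18 FPKM in MEC and 275 ± 36.1 FPKM in MEKO (SD, n = 3 each), a ratio of 1.56. Its log2 fold change of 0.63 ± 0.14 passed the test (limma, adjusted p = 0.0421) but not the fold threshold, and the exact permutation p was 0.1. The adjusted p (limma) was 0.147, 0.147 or 0.118 without MEC 1, 2 or 3, and 0.0293, 0.0718 or 0.0635 without line 199, 233 or 336. *Ddb1* lies at chr19:10605327-10629819, and its 100 tested neighbours had medians of 0.16, 0.09 and 0.31 in the 3 lines, against 0.50, 0.55 and 0.84 for *Ddb1*.

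*Ddb2* was lower in MEKO, at 7.99, 7.1 and 10.7 FPKM in MEC and 7.09, 5.6 and 5.85 FPKM in the lines. The groups did not overlap, although MEC 2 and line 199 were almost equal, and the log2 fold change of −0.41 did not pass (limma, adjusted p = 0.243). *Acp2* on the opposite strand shares 23.8% of the *Ddb2* exon length. The ratio of *Ddb1* to *Ddb2* was 16 to 24.8 in MEC and 35.1, 46.3 and 54 in lines 199, 233 and 336. It had to separate, because every line lay above MEC for *Ddb1* and below MEC for *Ddb2*. *Xpc*, whose protein starts repair in the genome at large, overlapped at 6.27 to 11.7 FPKM in MEC and 5.16 to 7.68 FPKM in MEKO. Its stabilising partner *Rad23b* was abundant and nearly constant, at 113 to 120 FPKM in MEC and 115 to 144 FPKM in MEKO. The third subunit, *Cetn2*, read 23.4 to 27.4 and 22.5 to 31.3 FPKM. None of the 3 passed the test. The ratio of *Rad23b* to *Xpc* overlapped, at 9.64 to 19.2 in MEC and 18.8 to 22.7 in MEKO.

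Neither gene of the transcription-coupled branch passed the test. *Ercc8* encodes CSA, the substrate receptor of a ubiquitin ligase at stalled RNA polymerase, and *Ercc6* encodes CSB, the remodeller that recruits it. *Ercc8* stood at 4.38, 5.16 and 3.66 FPKM in MEC and at 9.02, 4.29 and 3.81 FPKM in lines 199, 233 and 336, values chosen after they were seen. Only line 199 lay above MEC (limma, adjusted p = 0.652). *Ercc6* read 2.47 to 2.98 FPKM in MEC and 1.84, 3.1 and 3.67 FPKM in lines 199, 233 and 336, with line 199 below MEC and the others above it (limma, adjusted p = 0.941).

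Of the 6 TFIIH subunits among the listed genes, 5 had a log2 fold change above 0, as had 6381 of the 12461 tested genes. The median of the 6 was 0.22, with no call. In 3 of the 6 every line lay above MEC, against 18.5% of all tested genes. The groups overlapped in the other subunits, which are on a wider list described below and were named after their values were seen. Their log2 fold changes were 0.0002 for *Gtf2h5*, 0.13 for *Cdk7*, 0.42 for *Ccnh* and 0.07 for *Mnat1*, and none was called. *Ercc3* encodes XPB, the translocase that opens DNA, and *Ercc2* encodes XPD, the helicase that verifies the lesion. *Ercc3* stood at 20.7, 19.9 and 21.9 FPKM in MEC and at 28.5, 28.2 and 29.6 FPKM in the lines. The groups were tight and did not overlap, with a log2 fold change of 0.45 ± 0.13 (limma, adjusted p = 0.0787). *Gtf2h1*, the p62 subunit, stood at 30.6, 30.1 and 28.8 FPKM in MEC and at 49.2, 37.9 and 37.5 FPKM in the lines, also without overlap (log2 fold change 0.45 ± 0.16, limma, adjusted p = 0.125). *Gtf2h2*, the p44 subunit, was the third whose groups did not overlap, at 10.9 to 13 FPKM in MEC and 14.4 to 16.2 FPKM in MEKO (limma, adjusted p = 0.183). *Ercc2* was the only gene of the 6 with a log2 fold change below 0 (−0.30), at 9.91 to 13.5 FPKM in MEC and 7.8 to 10.5 FPKM in MEKO (limma, adjusted p = 0.343), and *Gm26852* on the opposite strand shares 24.6% of its exon length. *Gtf2h3* was even in MEC, at 14.8 to 15.3 FPKM, and spread over 23.6, 18 and 9.59 FPKM in lines 199, 233 and 336, values noted after they were seen. *Gtf2h4* overlapped at 9.5 to 12.6 and 8.54 to 15 FPKM.

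Of the incision genes, *Ercc5* was higher in lines 233 and 336 alone. *Ercc5* encodes XPG, the nuclease that cuts 3′ of the lesion, and *Ercc4* and *Ercc1* encode XPF and its partner, which cut 5′ of it. *Ercc5* stood at 10.4, 9.83 and 10.1 FPKM in MEC and at 10.2, 24.3 and 22.4 FPKM in lines 199, 233 and 336. Line 199 sat inside the narrow MEC range and the other lines were far above it, values described after they were seen. With all 6 libraries the log2 fold change was 0.76 ± 0.33 and did not pass (limma, adjusted p = 0.19). Without line 199, the line that sat inside the MEC range, it was 1.13 with an adjusted p of 0.00702 (limma). Leaving out the line without the rise favours a call, so that p adds no support for a difference between the groups. In that fit 1 of the 38 repair genes was called, against 1886 of all 12461 tested genes. *Ercc5* lies at chr1:44147744-44181260, and its 25 tested neighbours had medians of 0.21, −0.78 and −0.41 in lines 199, 233 and 336, where *Ercc5* itself differed from MEC by 0.01, 1.19 and 1.08. *Ercc4* read 6.36 to 7.44 FPKM in MEC and 4.98 to 6.78 FPKM in MEKO, *Ercc1* read 28.2 to 44.9 and 28 to 39.6 FPKM, and *Xpa*, which helps to verify the lesion, read 14.5 to 15.6 and 9.6 to 14.5 FPKM. None of these 3 passed the test. The ratio of *Ercc1* to *Ercc4* overlapped, at 4.22 to 7.03 in MEC and 4.59 to 5.97 in MEKO. Summed over the 17 genes, nucleotide excision repair transcripts came to 501 to 522 FPKM in MEC and 637, 630 and 665 FPKM in the lines, with *Ddb1* the largest part.

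**Figure D3:**
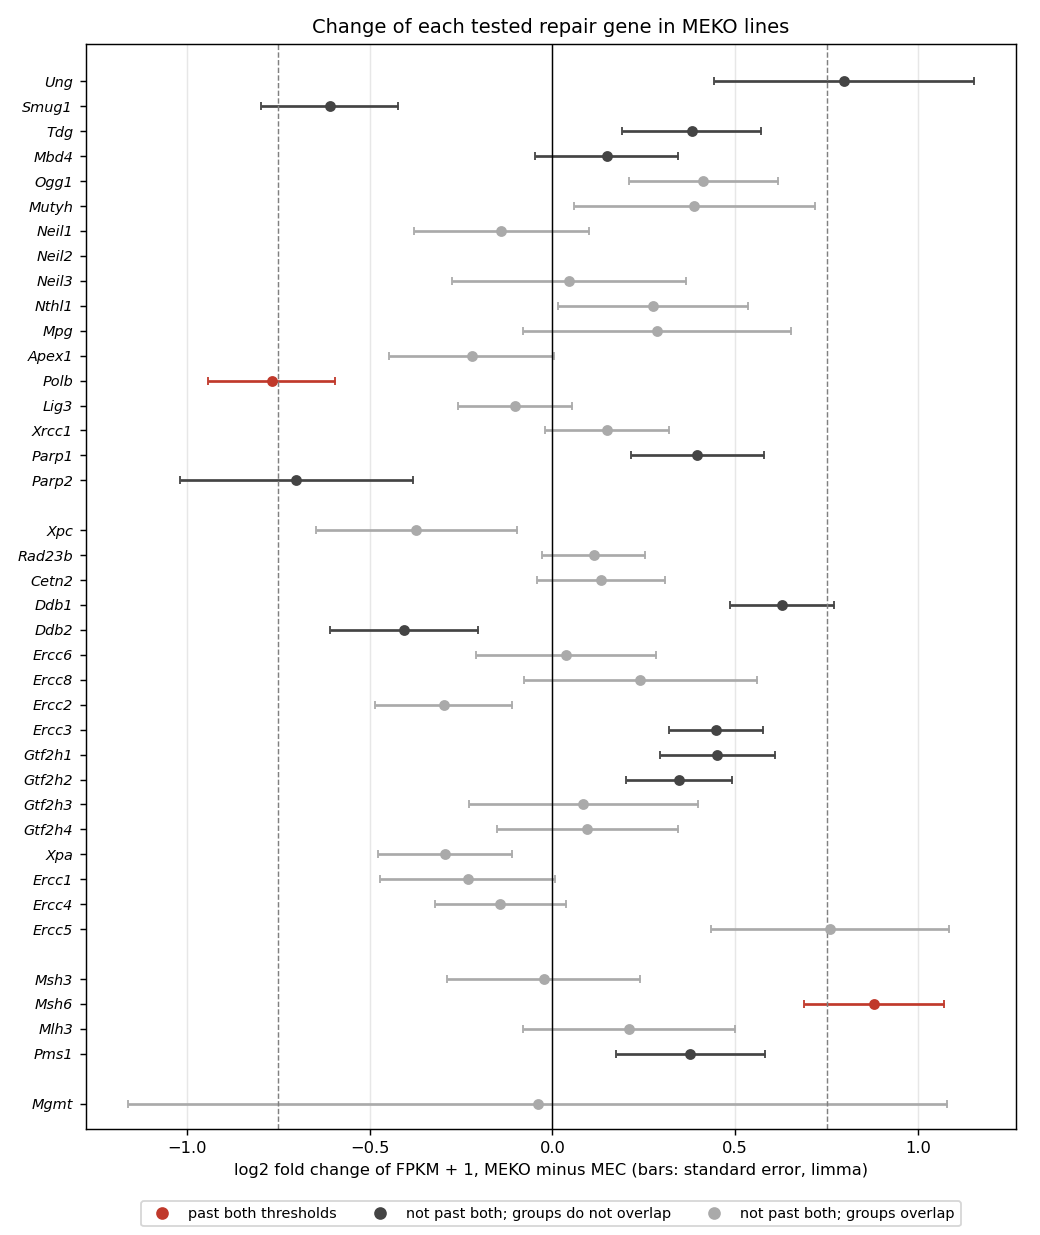
Log2 fold change of FPKM + 1 (MEKO minus MEC) with its standard error from limma for the 38 tested repair genes, with dashed lines at the fold threshold of 0.75 either way. *Msh6* (0.88) and *Polb* (−0.77) are past both thresholds, and *Neil2*, which was not tested, has no point.

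*Mgmt* split the lines. It encodes the methyltransferase that lifts alkyl groups from guanine directly, without excision. *Mgmt* stood at 14, 11.2 and 26.4 FPKM in MEC and at 1.51, 42.3 and 41.4 FPKM in lines 199, 233 and 336. Line 199 lay far below every MEC library and the other lines far above, so that the mean difference was near 0 with a wide error (log2 fold change −0.04 ± 1.12, limma, adjusted p = 0.986). Its sign turned to 0.30 without MEC 3 and to 1.32 without line 199. The 56 tested neighbours of *Mgmt* (chr7:136894614-137130266) had medians of −0.17, −0.05 and 0.01 in the 3 lines. Line 199 also differed from the other lines in its basal markers, which were at the MEC level, and in its collagen genes, which were above it, and their part in its *Mgmt*, *Ercc5* and *Ercc8* values was not tested.

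Each line was also set against MEC alone, as a description with 1 library a line. A gene was counted where it lay outside the range of the 3 MEC libraries and more than 0.75 from their mean on the log2 scale. In line 199 *Msh6* (1.22), *Ung* (1.33) and *Ercc8* (0.90) were higher and *Mgmt* (−2.77) was lower, so 7.89% of the 38 genes were higher and 2.63% lower against 12.8% and 16.9% of all tested genes. In line 233 *Ercc5* (1.19) and *Mgmt* (1.34) were higher and none was lower, against 9.92% and 17.5% of all tested genes. In line 336 *Ddb1* (0.84), *Ercc5* (1.08) and *Mgmt* (1.31) were higher and *Smug1* (−0.78), *Polb* (−0.89) and *Parp2* (−1.40) were lower, against 11.2% and 18.2%. No repair gene passed in the same direction in all 3 lines, and the share of all tested genes that did so was not counted.

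**Figure D4:**
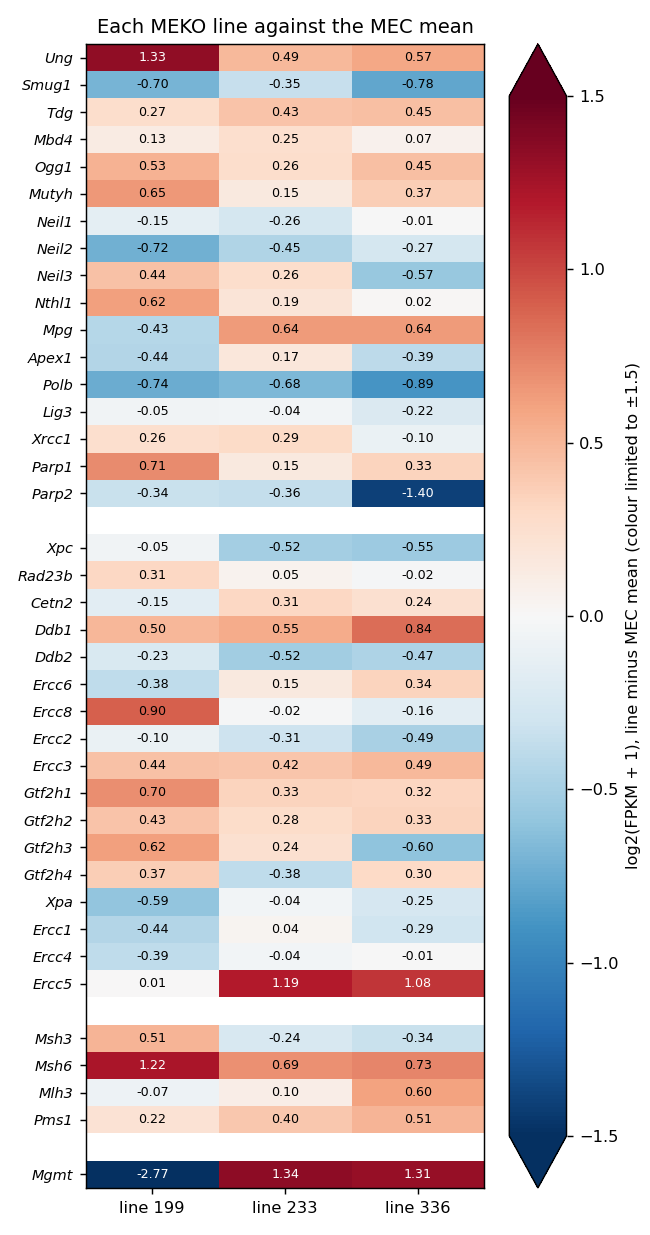
Log2(FPKM + 1) of each MEKO line minus the MEC mean for the 39 repair genes, as numbers and as colour (limited to 1.5 either way). *Mgmt* is −2.77 in line 199, 1.34 in line 233 and 1.31 in line 336, while *Msh6* is between 0.69 and 1.22 and *Polb* between −0.89 and −0.68.

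The spread between lines was described in the same way, with no test. The range over the 3 lines was wider than the range over the 3 MEC libraries in 22 of the 38 repair genes (57.9%) and in 73.8% of all tested genes. The median range was 0.35 in MEC and 0.49 in the lines for the repair genes, and 0.35 and 0.623 for all tested genes, on the log2 scale. Without line 199, 15 of the 38 genes (39.5%) lay wholly above MEC and 7 (18.4%) wholly below, against 26% and 26.8% of all tested genes. The median log2 difference of the nucleotide excision genes was 0.01, 0.05 and −0.01 in lines 199, 233 and 336, that of the base excision genes 0.19, 0.18 and 0.01, and that of the mismatch repair genes 0.36, 0.25 and 0.56. Their medians in the fit of all lines were 0.10, 0.15 and 0.29, with no test, and that of the nucleotide excision genes was −0.021 without line 199.

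A wider list of 48 further genes of the same pathways, of which 46 were tested, held no call in either direction (limma). Among all tested genes 2.64% were called higher and 7.26% lower. Without line 199, 2 of the 46, *Cul4b* and *Parp3*, were called higher, in a fit that called 1886 of all 12461 tested genes. At an unadjusted p under 0.05, 13 of the 46 were higher in MEKO and none was lower, against 1548 and 1961 of the 12461 tested genes. In 17 (37%) every line lay above MEC and in 1 (2.17%) every line lay below, against 18.5% and 18.7% of all tested genes, and the median log2 fold change was 0.18. The helpers of mismatch repair, which excise and resynthesise the new strand, had the highest median of 0.64 over 11 genes, against 0.17 for the base excision and 0.14 for the nucleotide excision genes. *Rfc1*, the large subunit of the clamp loader, had a log2 fold change of 0.87 (limma, adjusted p = 0.0605), and *Pold2*, a subunit of DNA polymerase delta, 1.11 (limma, adjusted p = 0.0731). The groups overlapped in the other listed subunits of that polymerase, *Pold1* (0.04), *Pold3* (−0.36) and *Pold4* (0.26), and none was called. *Exo1*, the exonuclease of mismatch repair, had 0.70 (limma, adjusted p = 0.162) and *Pcna*, the sliding clamp, 0.37 (limma, adjusted p = 0.461). *Cul4b*, a scaffold of the DDB1 ubiquitin ligases, had 0.82 (limma, adjusted p = 0.057), and *Parp3*, a relative of *Parp1* that acts at breaks, had 1.31 (limma, adjusted p = 0.113). *Parp3* stood at 6.73, 6.36 and 9.98 FPKM in MEC and at 9.74, 26.5 and 30.9 FPKM in lines 199, 233 and 336, so that line 199 lay within the MEC range and the others above it, as for *Ercc5*. These genes of the wider list were named after their values were seen. Many helpers of mismatch repair also serve DNA replication, and the 18 proliferation genes had a median log2 fold change of 0.70, all above 0 and none called, so the part of proliferation in the helpers was not tested.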

How the data were processed

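RNA-seq libraries of 3 MEC preparations and 3 MEKO tumor cell lines were analysed, grouped by their labels. The authors aligned paired-end reads to mm10 (GRCm38) with Bowtie2 and TopHat2 2.0.14 and quantified genes with Cufflinks 2.2.1, and deposited 1 table of FPKM, normalized for length and library size. Whether strand was used is not given in the sources used here. No replicate was pooled, and 466 entries joined several genes, none of them a repair gene here.

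Genes averaging at least 1 FPKM over the libraries were fitted as log2(FPKM + 1) with limma 3.58.1 (R 4.3.3, mean-variance trend) and adjusted by the Benjamini-Hochberg method over all 12461, with calls at an adjusted p under 0.05 and a log2 fold change beyond 0.75, the thresholds of the study's methods. Tests for read counts could not be used on FPKM, and Cuffdiff was not repeated. The log2(FPKM + 1) scale understates the change of low genes. FPKM give no depth, so no counting interval was made; from small values, depth relative to MEC 1 was 0.92 to 1.30. The exact permutation tests were two-sided. The fit was tested on simulated data. Positions and exons came from GENCODE M21 on GRCm38, and promoter windows from RefSeq (GRCm38.p6).

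Values in every library are given for repair genes past both thresholds, for up to 3 genes a pathway in each direction with the largest change among those whose groups did not overlap, for the most abundant gene of each pathway, for *Neil2* and for *Mgmt*. Other genes were named after their values were seen. The genes and lists were chosen with earlier results of these data known. Alternatives were a pseudocount of 0.1, no filter, a filter at 5 FPKM, quantile and upper-quartile scaling, no trend, sample weights, no fold threshold, and each library left out.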

Additional observations from a re-analysis of the deposited data

How the results depend on the processing

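The count of all called genes (1234) was 738 with a filter at a mean of 5 FPKM, 1978 with sample weights, and 300 (without MEC 1) to 1886 (without line 199) with 1 library left out. The count of called repair genes (2) was 1 with no mean-variance trend and 1 with upper-quartile scaling, 3 with no fold threshold (*Ddb1* added), and 0 to 1 with 1 library left out, where fewer libraries enter the fit. The wider list (0 called) had 1 call with quantile normalization (*Fen1*) and 2 with sample weights (*Parp3* and *Cul4b*), and 0 to 2 with 1 library left out (the same 2 genes, without line 199). Repair genes with groups that did not overlap (14) numbered 16 to 22 with 1 library left out, which leaves fewer values to overlap. The median log2 fold change of base excision genes (0.15) was 0.32 and that of mismatch repair genes (0.29) was 0.53 with quantile normalization, which moved the median of all genes from 0.01 to 0.10. The mismatch repair median was 0.88 with the filter at 5 FPKM, which kept *Msh6* alone. With 1 library left out the medians ran from −0.021 (without line 199) to 0.12 for nucleotide excision, 0.09 to 0.23 for base excision and 0.22 to 0.40 for mismatch repair.

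The log2 fold change of *Mgmt* was 0.81 with sample weights and −0.73 to 1.32 with 1 library left out, and it was above 0 without MEC 3 (0.30) and without line 199 (1.32). *Msh6* was called in 6 of the 13 alternatives that kept the fold threshold, with a log2 fold change of 0.71 to 0.98, and *Polb* in 5 of 13, with −0.87 to −0.60. *Ddb1* was called in 0 of these 13, and *Ercc5* in 2, with sample weights and without line 199. No paired analysis was possible because the labels give the groups no shared replicate numbers. Depth is unknown, and low genes such as *Neil2* and *Mbd4* are measured least precisely.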
